A study of Rattus norvegicus with 12 samples.

Results

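The 10 secreted matrix genes described here were measured in rat kidney across kidney development and a cultured kidney tissue. They are Postn, Tnc, Sparc and Thbs2, the related pair Ccn1 and Ccn2, the scaffold genes Fn1 and Fbn1, and the crosslinking enzyme genes Lox and Loxl1. They were picked by name with earlier results of these data known, so counts among them describe the genes and test no enrichment. All 13 probe sets whose only annotated symbol is one of these 10 are shown, out of 31042 probe sets for 14217 symbols on the array. Sparc, Fbn1 and Lox have 2 probe sets each and the other genes have 1. The in vivo samples are RNA of rat kidneys, with 3 arrays of embryonic day 13 (E13), 4 arrays of embryonic day 18 (E18) and 3 arrays of kidneys 4 weeks after birth (Wk4). The last group has 2 arrays and is named recombined tissue here: UBs formed in vitro and not branched were put together with MM and kept in culture for 6 days. In this field the abbreviations stand for ureteric buds and metanephric mesenchyme. The labels name no strain, sex, genotype or drug. Nor do they tell if the arrays of a group stem from different animals, litters or cultures, so the spread behind the p-values is that between arrays and could be technical. The design set the cultured tissue beside kidney development, counting differences of 3-fold.

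The ureteric bud is the epithelial outgrowth that becomes the collecting ducts, and the metanephric mesenchyme around it gives rise to nephrons and stroma. Matricellular proteins such as periostin, tenascin-C, SPARC, thrombospondin-2 and the CCN proteins are secreted into the matrix but mostly tune how cells attach, move and signal rather than bear load. Fibronectin forms the first fibrils of many matrices, fibrillin-1 builds the microfibrils on which elastin is laid down, and lysyl oxidases oxidise lysines so that collagen and elastin crosslink. In the kidney these genes are mainly known from developing mesenchyme and stroma, from vessel walls and from the fibroblasts of a scarring kidney.

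Values below are the deposited probe set signals on a linear scale, which the authors had scaled to a common mean per array. Levels are mean signals ± SD over the arrays of a group. Differences ± SE are given in log2(signal + 271), with p-values from a limma fit of all 12 arrays, adjusted over 22599 probe sets. A probe set is called here, and said to rise or fall, if the adjusted p is under 0.05 with a difference of at least 3-fold. All 13 probe sets passed the filter on low values, although Ccn1 did so through E18 alone, where 3 of 4 arrays lay above their 40th percentile, against 0 of 3 at E13, 0 of 3 at Wk4 and 0 of 2 in recombined tissue. Per array the median signal was 799 to 1020, and precision is limited by the small number of arrays. The embryonic arrays fell into 2 sets whose deviations from their group means ran together across stages: E13 replicate 1 with E18 replicates 1 to 3, and E13 replicates 2 and 3 with E18 replicate 4. Correlations of these deviations across the tested probe sets were 0.248 to 0.413 between E13 and E18 arrays of a set, and -0.603 to -0.148 between arrays of different sets. The sets were drawn from these same correlations, so the ranges describe them and are no test of them. Deviations also cancel out within a stage, so positive correlations come with negative ones. The labels give no batch for the sets. Within both sets the E18 calls of Tnc and Lox given below were made again, and values within sets are given for Sparc, where they matter. Centring each array on its median moved all differences of recombined tissue from E13 by -0.19, and the median over all tested probe sets from -0.0043 to -0.20. RNA of bulk tissue cannot tell fewer cells of a type from less RNA per cell.

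Recombined tissue had the highest mean of the 4 groups for 12 of the 13 probe sets and 9 of the 10 genes, where 27.0% of all tested probe sets peaked in that group. The exception was Ccn1. The group with the lowest mean differed: E13 for 7 probe sets, among them both of Lox and that of Tnc, and Wk4 for 5, among them Postn and Fn1.

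**Figure D1:**
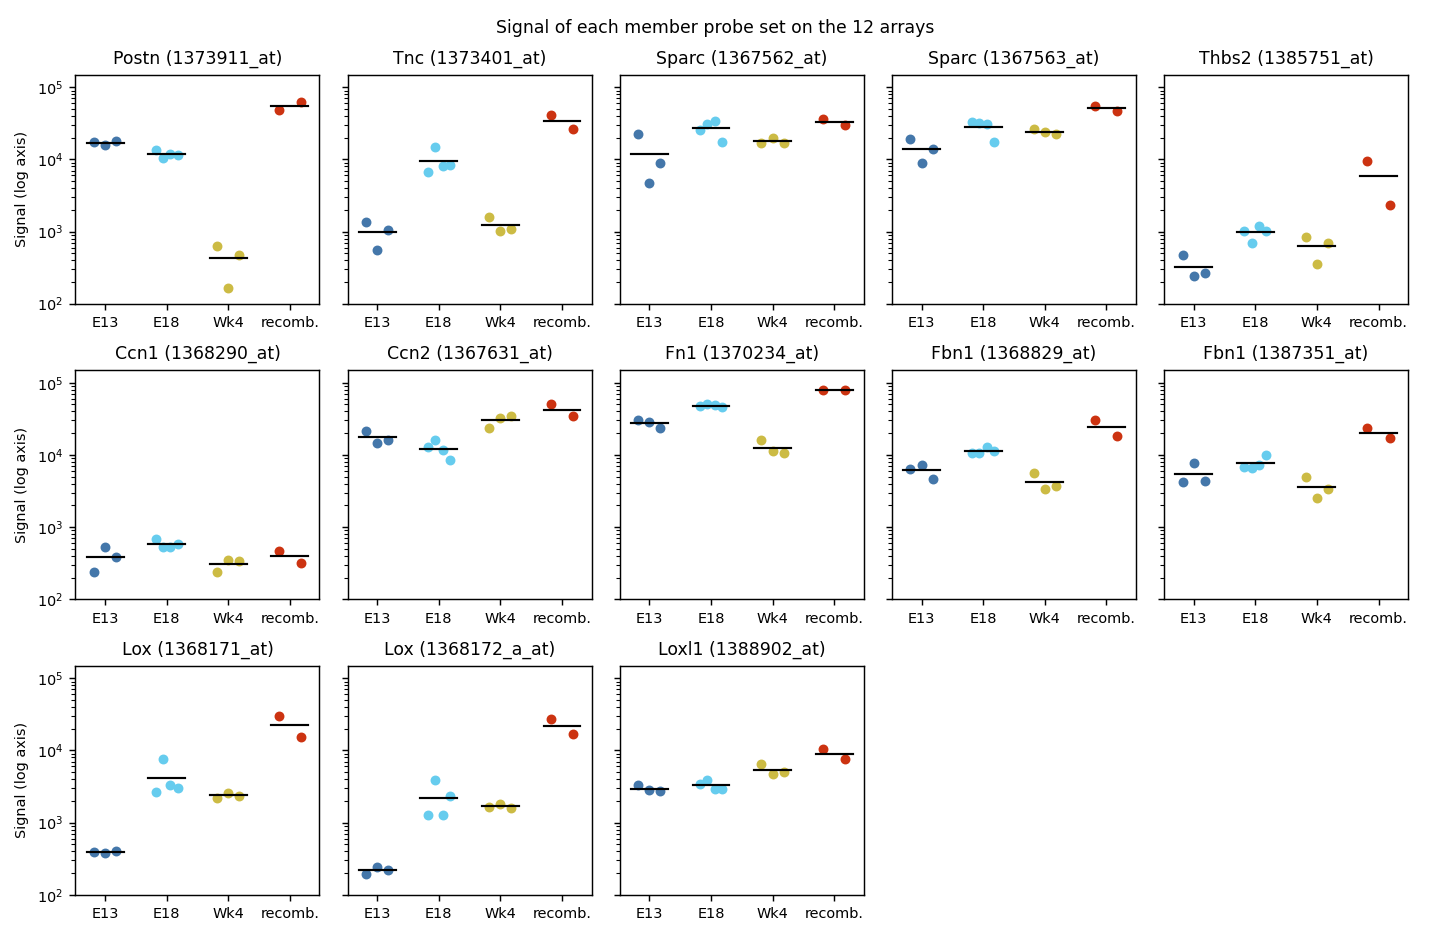
Signal of each of the 13 probe sets on the 12 arrays, on a log axis, by group (E13, E18, Wk4 and recombined tissue, shortened to recomb.). Points are arrays and bars are group means. Postn drops to between 165 and 633 at Wk4, Lox lies near the bottom at E13, and the recombined group has the highest mean for all genes but Ccn1.

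Postn, which encodes periostin, a partner of collagen and tenascin-C in the matrix, was bright in the embryonic kidney, far dimmer in the mature kidney and highest in culture. Its signals were 17279.6, 15870.4 and 17919 at E13, 13518, 10411, 11728 and 11477 at E18, 633, 165 and 474 at Wk4 and 48342 and 61493 in recombined tissue. No group overlapped another, and 1 of the 3 Wk4 arrays lay above its 40th percentile. From E18 to Wk4 it fell by 4.17 on the log2 scale (SE 0.20, adjusted p = 3.64e-10), and only 15 of 22599 probe sets had a more negative difference. The step from E13 to E18 was -0.52 ± 0.20 and did not pass (adjusted p = 0.0762). Recombined tissue stood above E13 by 1.67 ± 0.23 (adjusted p = 9.67e-05), above E18 by 2.19 ± 0.22 (adjusted p = 5.73e-06) and above Wk4 by 6.37 ± 0.23 (adjusted p = 3.44e-11). The last is the fourth highest difference of all probe sets tested. Since the Wk4 signals were dim, the sizes of the differences from Wk4 rest on the pseudocount, and the ranks given are those of the main fit. Wk4 against E18 came to -5.00 with no pseudocount and -3.10 with 4 times as much, called in both. Recombined tissue against Wk4 came to 7.21 and 5.22 in the same way, also called in both. The call of recombined tissue against E13 lay close to 3-fold: it was lost without recombined replicate 2 (1.49) and under median centring (1.47).

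Tnc, the gene of tenascin-C, a large glycoprotein of tissues under remodelling that loosens cell attachment to fibronectin, followed a different course with a peak at E18 in vivo. It was measured at 1337, 557 and 1053 on the E13 arrays and at 6727, 14616, 8107 and 8235 on the E18 arrays. The Wk4 arrays read 1569.5, 1016 and 1085, which overlap those of E13, while recombined tissue gave 41326 and 26276, above every other array. Tnc rose from E13 to E18 by 2.94 ± 0.27 (adjusted p = 2.32e-06) and fell from E18 to Wk4 with a difference of -2.65 ± 0.27 (adjusted p = 9.93e-07). Wk4 and E13 were not told apart (difference 0.29 ± 0.29, interval -0.33 to 0.91, adjusted p = 0.408). In recombined tissue it was 34.4 times the E13 mean signal (difference 4.78 ± 0.32, adjusted p = 1.14e-07) and 3.59 times that of E18 (difference 1.84 ± 0.31, adjusted p = 0.000423). The call against E18 was lost without recombined replicate 1 (1.52).

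Thbs2 encodes thrombospondin-2, an inhibitor of vessel growth that also shapes collagen fibrils. It was dim in vivo, with 470.1, 241 and 263 at E13, 1028, 703, 1185 and 1030.2 at E18 and 828, 351 and 698 at Wk4. All 3 E13 arrays lay below their array's 40th percentile, so folds against E13 rest on a signal with no detection call here. The recombined arrays read 9399.6 and 2325, above all others but 4.04-fold apart from each other. The difference was 3.09 ± 0.42 against E13 (adjusted p = 7.44e-05), 2.01 ± 0.40 against E18 (adjusted p = 0.00168) and 2.52 ± 0.42 against Wk4 (adjusted p = 0.000147). Without recombined replicate 1 these became 2.14, 1.06 and 1.57, and only the first was still called. The E18 arrays lay above the E13 arrays, but the difference of 1.08 ± 0.35 (adjusted p = 0.043) was under 3-fold, and it was called with no pseudocount (1.64).

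Sparc, whose product binds collagen and calcium and is abundant in basement membranes, spanned a narrow range, with its highest group mean 2.79 and 3.66 times its lowest. Its 2 probe sets had E13 levels of 11970.4 ± 9170.4 and 14033 ± 4968, and recombined levels of 33347 ± 4700.1 and 51332 ± 6129. Both rose in recombined tissue against E13, by 1.73 ± 0.43 (adjusted p = 0.00718) for 1367562_at and by 1.91 ± 0.28 (adjusted p = 0.000122) for 1367563_at. The first call was lost without E13 replicate 2 (1.22), without recombined replicate 1 (1.58), with the array set in the fit (1.52) and with median centring (1.53). The E13 arrays of 1367562_at read 22288, 4750.4 and 8872 and the E18 arrays 25692, 31272, 33827 and 17188, so that in both stages the arrays of the smaller set were the lower ones. E18 stood above E13 by 1.38 ± 0.36 (adjusted p = 0.0141), but by 0.43 within the set of E13 replicate 1 (adjusted p = 0.406) and 1.37 within the other (adjusted p = 0.00765). Without E13 replicate 1 the same probe set was called (1.96). For 1367563_at the difference was 1.02 ± 0.23, and 0.74 and 0.63 within the sets. Each set has a stage with 1 array, and the spread of that stage was borrowed from the others. Between E18 and Wk4 neither probe set was called, at -0.54 ± 0.36 and -0.18 ± 0.23.

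Ccn1 and Ccn2 encode related proteins that bind integrins and growth factors, and both are textbook targets of the YAP and TAZ coactivators, which reach DNA through TEAD factors. The upstream sequences of both are shown, each the 250 bases before the gene's start in RefSeq (build GRCr8, written 5′ to 3′ on the gene's own strand, which is the minus strand for both). They were picked because Ccn2 was called in a comparison and Ccn1, which was dim throughout, in none. Whether the motifs bear on that difference was not tested. Capitals mark the TEAD-type motif GGAATG on either strand, where the reverse reads CATTCC.
Ccn1, chr2:237225690-237225939: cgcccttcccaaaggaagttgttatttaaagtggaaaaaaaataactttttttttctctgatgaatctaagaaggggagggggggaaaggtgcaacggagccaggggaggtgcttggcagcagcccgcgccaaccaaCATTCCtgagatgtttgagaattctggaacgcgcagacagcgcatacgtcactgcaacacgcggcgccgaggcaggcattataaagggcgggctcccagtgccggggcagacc
Ccn2, chr1:22624615-22624864: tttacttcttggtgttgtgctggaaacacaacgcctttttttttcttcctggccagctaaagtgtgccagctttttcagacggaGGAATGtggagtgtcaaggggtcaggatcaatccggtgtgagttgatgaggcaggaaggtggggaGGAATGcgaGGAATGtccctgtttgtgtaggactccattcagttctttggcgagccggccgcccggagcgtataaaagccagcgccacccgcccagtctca
The Ccn2 window held 3 such motifs, starting 166, 101 and 92 bases before the gene's start, and the Ccn1 window 1, starting 113 bases before it. Of 33469 RefSeq windows of this length 12.1% held at least 1 and 0.0807% held 3 or more. The SMAD-type motif CAGACA (reverse TGTCTG, no overlap with the other) occurred 1 time for Ccn1 and 0 times for Ccn2, and 17.2% of all windows had it. Windows of the other genes are not described here. A match is only a run of letters and shows no binding.

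Ccn2 was bright in every group and, in vivo, highest in the mature kidney. Its signals were 21797, 14739 and 16217 at E13, 12801, 16031, 11547 and 8548 at E18, 23444, 32859 and 35099 at Wk4 and 50987 and 34202 in recombined tissue. The E18 arrays were the lowest as a group, overlapping those of E13, and the Wk4 and recombined arrays overlapped at the top. Wk4 stood above E18 by 1.31 ± 0.21 (adjusted p = 9.24e-05), under 3-fold, a difference opposite in sign to those of Postn, Tnc and Fn1, which fell over the same step. Recombined tissue rose over E18 by 1.78 ± 0.24 (adjusted p = 7.01e-05), a call lost without recombined replicate 1 (1.4976), and stood above E13 by 1.26 ± 0.25 (adjusted p = 0.00161). Against Wk4 the difference was 0.47 ± 0.25 (interval -0.06 to 1.01, adjusted p = 0.129).

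Ccn1 was dim throughout, at 384 ± 149.9, 582 ± 76.8, 309 ± 61.2 and 391 ± 109.5 in the order E13, E18, Wk4 and recombined tissue. The E13, Wk4 and recombined arrays overlapped. No comparison of Ccn1 was called. The interval against E13 in recombined tissue was -0.51 to 0.57 around a difference of 0.03, on a scale that draws in dim signals, so it sets no bound on the change. The E18 mean was the highest of the 4, and E18 is also the group through which Ccn1 passed the filter, so its differences from E18 are not read further.

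Fn1, the fibronectin gene, varied little within the groups and separated all 4 of them. Its arrays read 30907, 28875 and 23626 at E13, 47155, 50125, 49603 and 46578 at E18, 15859.8, 11158 and 10748 at Wk4 and 78897 and 78689 in recombined tissue. No group overlapped another, and the order was recombined tissue, E18, E13, Wk4. Each step in that order passed an adjusted p under 0.05: 0.70 ± 0.14 from E18 to recombined tissue (adjusted p = 0.00212), 0.80 ± 0.13 from E13 to E18 (adjusted p = 0.000385), and -1.14 ± 0.14 for Wk4 against E13 (adjusted p = 3.9e-06). Fn1 fell from E18 to Wk4, with a difference of -1.94 ± 0.13 (adjusted p = 9.84e-09), and recombined tissue rose over Wk4 by 2.64 ± 0.15 (adjusted p = 2.96e-09). Against E13 the difference in recombined tissue, 1.5028 ± 0.15 (adjusted p = 5.17e-06), was just under 3-fold, and of the alternatives that kept the 3-fold threshold it was called with quantile normalization (1.71). The single probe set does not separate the splice forms of fibronectin.

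Fbn1, whose product fibrillin-1 forms microfibrils that also hold latent TGF-beta, kept the same order as Fn1 in both of its probe sets. For 1368829_at the signals were 6432, 7256 and 4619 at E13, 10676, 10485, 12852 and 11219 at E18, 5539, 3382 and 3664 at Wk4 and 30849 and 18099 in recombined tissue. The E18 arrays lay clear of those before and after, and the recombined arrays above all. The other probe set, 1387351_at, had levels of 5446 ± 2005, 7651 ± 1671, 3627 ± 1226 and 20247 ± 4440.5 in the same order of groups, and its E13 arrays overlapped both E18 and Wk4. Both rose in recombined tissue against E13, by 1.93 ± 0.24 and 1.88 ± 0.29, and against Wk4, by 2.45 ± 0.24 and 2.43 ± 0.29 (adjusted p between 8.68e-07 and 0.000186 over these 4). For 1368829_at the call against E13 was lost without recombined replicate 1 (1.55). Against E18 the differences were 1.05 ± 0.23 and 1.38 ± 0.27, with adjusted p = 0.00327 and 0.00159, below 3-fold, and 1387351_at was called without recombined replicate 2 (1.60). Wk4 was below E18 by less than 3-fold in both, at -1.40 ± 0.20 and -1.05 ± 0.24, and 1368829_at was called lower without Wk4 replicate 1 (-1.61).

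Lox, the lysyl oxidase gene, was among the genes that differed most between recombined tissue and E13, from E13 signals that were low on their arrays. Probe set 1368171_at read 396, 385 and 398 at E13, 2649, 7630.2, 3288 and 3015 at E18, 2225, 2551 and 2371 at Wk4 and 29754 and 15210.5 in recombined tissue. Probe set 1368172_a_at read 193, 239 and 223, then 1255, 3864, 1278 and 2304, then 1627, 1818 and 1616, then 27036 and 17138 in the same order. In both, the E13 arrays were the lowest and the recombined arrays the highest with no overlap, and all E13 arrays lay below their array's 40th percentile. Lox rose from E13 to E18 by 2.61 ± 0.29 and 2.20 ± 0.29 (adjusted p = 1.54e-05 and 6.83e-05). It was also above E13 at Wk4, by 1.9966 ± 0.31 and 2.0007 ± 0.31 (adjusted p = 5.42e-05 and 4.66e-05), while E18 and Wk4 were not told apart, at -0.61 ± 0.29 and -0.20 ± 0.29. With 4 times the pseudocount, which draws in dim signals, the Wk4 calls against E13 were lost (1.23 and 1.09), and that of 1368172_a_at at E18 as well (1.25). In recombined tissue the differences from E13 were 5.02 ± 0.35 and 5.48 ± 0.34 (adjusted p = 1.42e-07 and 5.34e-08), ranked 14 and 11 from the top of all probe sets tested. The size and rank rest on the pseudocount: with 4 times as much the differences were 3.92 and 4.12, beside 4.06 for Tnc. Over E18 it rose by 2.41 ± 0.33 and 3.28 ± 0.32, and over Wk4 by 3.02 ± 0.35 and 3.48 ± 0.34. E18 replicate 2 had the highest Lox signal of its stage in both probe sets. Without it the E18 rise was 2.29 and 1.90, still called in both.

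Loxl1, a lysyl oxidase that in mice is needed to keep up elastic fibres, shifted far less than Lox and in vivo was highest at Wk4. Its arrays read 3313, 2848 and 2717 at E13, 3432, 3942, 2961 and 2963 at E18, 6508, 4772 and 4962 at Wk4 and 10514 and 7512 in recombined tissue. The E13 and E18 arrays overlapped, the Wk4 arrays lay above both, and the recombined arrays above those. Wk4 exceeded E18 by 0.66 ± 0.16 (adjusted p = 0.00236) and recombined tissue exceeded Wk4 by 0.70 ± 0.19 (adjusted p = 0.00542), both under 3-fold. Recombined tissue against E13 came to 1.51 ± 0.19 (adjusted p = 3.25e-05), short of 3-fold, and it was called without E13 replicate 1, without recombined replicate 2 and with no pseudocount (1.59, 1.74 and 1.59). Against E18 it came to 1.36 ± 0.18 (adjusted p = 5.62e-05), called without recombined replicate 2 (1.59).

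Over the first step in vivo, 3 of 13 (Tnc and both of Lox) rose from E13 to E18 and 0 fell, where 1.93% of all tested probe sets rose and 0.407% fell. Over the second, from E18 to Wk4, 3 fell (Postn, Tnc and Fn1) and 0 rose, against 5.43% and 5.76%. Between E13 and Wk4, both probe sets of Lox were higher and Postn lower, against 9.39% higher and 8.46% lower. Recombined tissue was called higher than E13 in 9 probe sets of 6 genes (Postn, Tnc, Sparc, Thbs2, Fbn1 and Lox) and lower in 0, where 3.95% of all were called higher and 0.912% lower. With median centring the split over all probe sets went from 892 higher and 206 lower to 705 and 318. Both recombined arrays lay above all E13 arrays for 12 of the 13, as they did for 24.7% of all probe sets. Against E18 it was higher in 6 probe sets of 5 genes (Postn, Tnc, Thbs2, Ccn2 and Lox) and lower in 0, with 2.73% and 1.67% over all. This count was 3 without recombined replicate 1. Against Wk4 it was higher in 8 probe sets of 6 genes (Postn, Tnc, Thbs2, Fn1, Fbn1 and Lox) and lower in 0, with 7.88% and 7.32% over all. The count against E13 was 7 to 10 and that against Wk4 7 to 8 when single arrays were left out. The median difference of the 13 was 1.88 against E13, 1.38 against E18 and 2.45 against Wk4, beside 0.00, 0.00 and 0.19 over all probe sets. These comparisons share arrays, so their counts are not separate evidence.

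**Figure D2:**
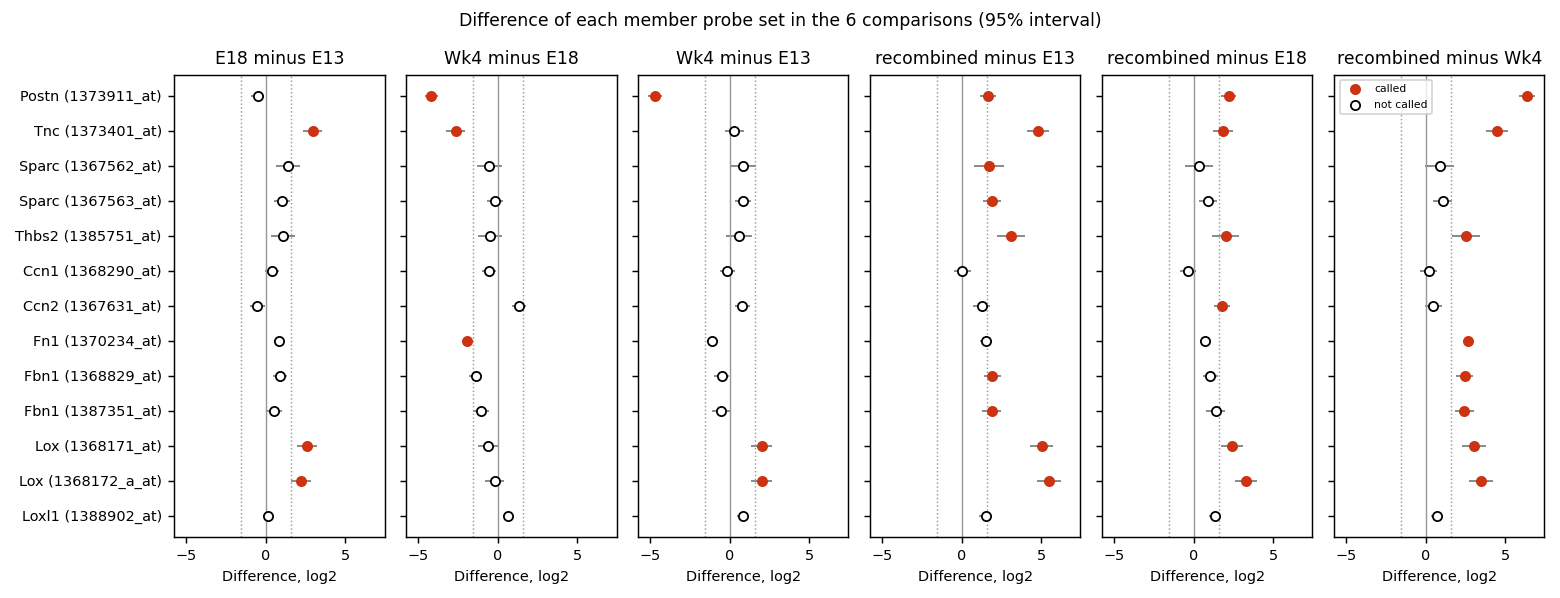
Differences on the log2(signal + 271) scale for the 13 probe sets in the 6 comparisons, with 95% intervals from the fit. Filled points were called, and dotted lines mark 3-fold. In the 3 comparisons of recombined tissue the called points are all on the right, 9, 6 and 8 of 13, while from E18 to Wk4 the 3 called points are on the left.

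Other genes of the same pathways were followed through 6 lists with 75 tested genes. Over all tested probe sets 5.43% fell and 5.76% rose from E18 to Wk4, so 1 gene of a list over that step is near the share. Recombined tissue was called higher than E13 in 3.95% of all and lower in 0.912%, and higher than Wk4 in 7.88%. Of 18 elastic fibre genes, 6 fell from E18 to Wk4 and 1 rose, Adamtsl2. The fibrillin gene Fbn2 went from 9413 ± 1981 to 90.4 ± 93.5 (difference -4.75 ± 0.24). Its size rests on the pseudocount, at -7.21 with none and -3.14 with 4 times as much, called in both. Fbln1, which encodes fibulin-1, differed by -3.37 ± 0.19 and the microfibril gene Mfap2 by -3.05 ± 0.21. Against E13, recombined tissue had 6 of these 18 genes called higher and 1 lower, Efemp1 (-1.65 ± 0.22). The Efemp1 call was lost without recombined replicate 1 (-1.26) or E13 replicate 1 (-1.58), and with 4 times the pseudocount (-1.46). The higher ones included Ltbp4, a binder of latent TGF-beta needed for elastic fibres (3.33 ± 0.29), the elastin gene Eln (2.55 ± 0.40) and Mfap4 (2.24 ± 0.27). Elastin itself stood at 675 ± 339, 1297 ± 704, 2439 ± 799 and 5077 ± 868 in E13, E18, Wk4 and recombined tissue. The list's median difference was 1.19 against E13, beside 0.00 over all probe sets.

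Of 12 genes for crosslinking and collagen maturation, 5 were called higher and 0 lower in recombined tissue against E13. The transglutaminase gene Tgm2 differed by 3.12 ± 0.20, and the lysyl hydroxylase genes Plod1 and Plod2 by 2.65 ± 0.32 and 2.56 ± 0.21. Tgm2 also rose from E18 to Wk4 (1.60 ± 0.16), over which Fkbp10 (-2.05 ± 0.15) and Pcolce (-1.69 ± 0.21), both helpers of collagen formation, fell. The call of Tgm2 was lost without E18 replicate 2 (1.57), E18 replicate 4 (1.56) or Wk4 replicate 1 (1.41). It was also lost with quantile normalization (1.44) and the replicate block (1.56). With 4 times the pseudocount Tgm2 (1.51), Fkbp10 (-1.50) and Pcolce (-1.49) were not called over that step. Pcolce was not called with the array set in the fit either (-1.52). Recombined tissue also exceeded E13 in 5 of 10 further matricellular genes, with 0 called lower, and Spp1, the osteopontin gene, was at 6.34 ± 0.19, Smoc2 at 2.55 ± 0.32 and Smoc1 at 2.54 ± 0.25. Spp1 was also the one of these genes that rose from E18 to Wk4 (2.23 ± 0.16), while Fstl1 fell (-2.02 ± 0.12). Recombined tissue was called higher than Wk4 in all 8 tested genes of collagens I, III, V and VI, and higher than E13 in 7 of them, among them Col6a3 (6.34 ± 0.17), Col6a1 (5.35 ± 0.20) and Col6a2 (4.75 ± 0.26). By Wk4, 1 of the 8 had fallen from E18 by at least 3-fold, Col5a2 (-1.87 ± 0.13). With it, 7 of the 8 were lower at an adjusted p under 0.05 in the limma fit, as 54.7% of all probe sets were either way. The median difference of the 8 was -1.21, beside -0.12 over all probe sets.

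Of the upstream signals and the receptors, 2 genes each were called between recombined tissue and E13. Of 13 genes of TGF-beta signalling and of the YAP and TEAD axis, 2 were called higher in recombined tissue against E13, the ligand gene Tgfb3 (1.60 ± 0.27) and the receptor kinase gene Axl (1.87 ± 0.16). None of the 13 was called by limma between E13 and E18 or between E18 and Wk4, where 3 and 6 had an adjusted p under 0.05, beside 19.8% and 54.7% of all probe sets. Of 14 matrix receptor genes, the integrin gene Itgb3 (1.77 ± 0.22) and Cd36 (2.03 ± 0.54), which binds thrombospondins, were called higher in recombined tissue against E13. Of these 4 genes Axl alone was still called without recombined replicate 1, where Tgfb3 came to 1.12, Itgb3 to 1.57 and Cd36 to 0.81 (adjusted p = 0.212). The Cd36 level in recombined tissue was 5564 ± 5690.1, and its difference was 3.26 without replicate 2. Without E13 replicate 3 the Tgfb3 call was lost as well (1.57). It was also lost with quantile normalization (1.51), median centring (1.41), the replicate block (1.57) and the array set in the fit (1.57). With 4 times the pseudocount Tgfb3 came to 1.19, Itgb3 to 1.30 and Cd36 to 1.52, none of them called. Itgb3 was not called with median centring either (1.57). Over the step from E18 to Wk4 Itgb6 rose (2.0031 ± 0.19) and Itga9 fell (-1.59 ± 0.26). The call of Itga9 was lost without E18 replicate 1 (-1.45), E18 replicate 3 (-1.57) or Wk4 replicate 2 (-1.53). It was also lost with quantile normalization (-1.48), median centring (-1.54) and the array set in the fit (-1.46). With 4 times the pseudocount neither Itga9 (-1.25) nor Itgb6 (1.47) was called.

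**Figure D3:**
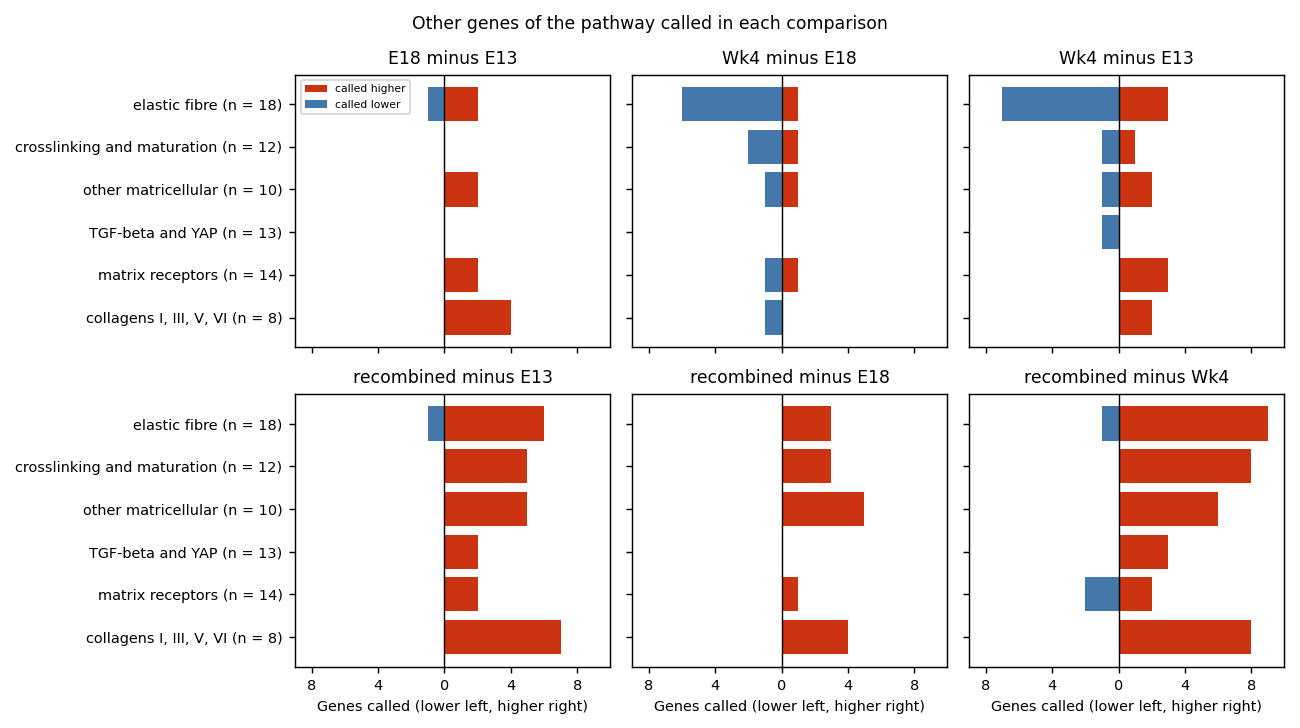
Number of genes called lower (left) and higher (right) in each of the 6 pathway lists, with the number tested in brackets, for each of the 6 comparisons. The elastic fibre bar points left from E18 to Wk4 (6 of 18), and in recombined tissue against Wk4 the collagen bar takes in 8 of 8.

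Markers of other cell types moved with the same comparisons. Over all probe sets 3.95% were called higher and 0.912% lower in recombined tissue against E13. From E18 to Wk4 5.76% rose and 5.43% fell, so 1 marker of a list is near the share there. From E13 to E18 1.93% rose and 0.407% fell. In recombined tissue against E13, 10 of 10 macrophage markers were called higher, with a summed signal of 114975 to 221232 against 7324 to 8613, and so were 6 of 8 smooth muscle and myofibroblast markers (149072 to 253678 against 20860.4 to 39955). Of 11 stroma and fibroblast markers 4 were higher and 2 lower, Tbx18 and Twist1 (258937 to 274741 against 214467 to 232977). The higher sum rests on Dcn, whose mean went from 2103 to 62038, by more than the mean sum did. Of 8 endothelial markers 3 were lower and 0 higher (4942 to 12789 against 27971 to 37920.5). Of 8 epithelial markers 0 were called by limma, with 2 at an adjusted p under 0.05 (31% over all probe sets; 14558 to 21053 against 17698 to 20038). Between E18 and Wk4, where Postn, Tnc and Fn1 fell, 4 of 11 stroma markers fell, and the sum was 149735 to 169029 at E18 and 59662 to 69776 at Wk4. Over the same step the smooth muscle and myofibroblast sum was 25183 to 49168 and then 15692 to 20887 (0 of 8 called). The macrophage sum was 19119 to 22888 and then 38992 to 42318 (1 of 10 higher). That marker was Lyz2, with means of 7254 and then 27897, and it carries nearly all of the change in the sum. The median difference of the 10 macrophage markers was 0.16, beside -0.12 over all probe sets. The endothelial sum was 36384 to 42693 and then 59559 to 67604 (0 of 8), and the epithelial sum 57251 to 69412 and then 107843 to 124915 (1 of 8 higher). That epithelial marker was Epcam, with means of 19065 and then 65035, and it carries most of the change in the sum. At an adjusted p under 0.05 in the limma fit, 4 of the 8 epithelial markers were higher and 3 lower, as 54.7% of all probe sets were either way. Between E13 and E18, where Tnc and Lox rose, 5 of 8 epithelial markers rose, with sums of 17698 to 20038 and then 57251 to 69412. Of the stroma markers 2 rose and 2 fell over that step, of the macrophage markers 1 of 10 rose, and 0 of 8 smooth muscle and 0 of 8 endothelial markers were called. No marker was listed at 0, and Foxd1, a defining gene of renal stroma, is not measured by a probe set of its own here. Of 10 kidney identity genes 0 were called between recombined tissue and E13, with 2 at an adjusted p under 0.05, and their sum was 19086 to 31931 against 30440.4 to 45026, with 381062 to 418818 at Wk4. The part of these cell types in the results above was not tested.

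The recombined arrays differed from each other in a common direction. Replicate 1 gave the higher signal for 12 of the 13 probe sets, where 44.5% of all tested probe sets were higher on it. The ratio of replicate 1 to replicate 2 ran from 0.786 for Postn, the exception, and 1.003 for Fn1 to 1.96 for Lox (1368171_at) and 4.04 for Thbs2. On replicate 1 the summed macrophage markers were 221232 and the smooth muscle and myofibroblast markers 253678, against 114975 and 149072 on replicate 2, while the stroma markers were 258937 and 274741. At E18, replicate 2 held the highest value of its stage for 6 of the 13 probe sets, where 30.2% of all tested probe sets peaked on it, and also the highest smooth muscle and myofibroblast sum, 49168 against 25183 to 37063 on the others. Whether these go together with the matrix values for a common reason was not tested.

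**Figure D4:**
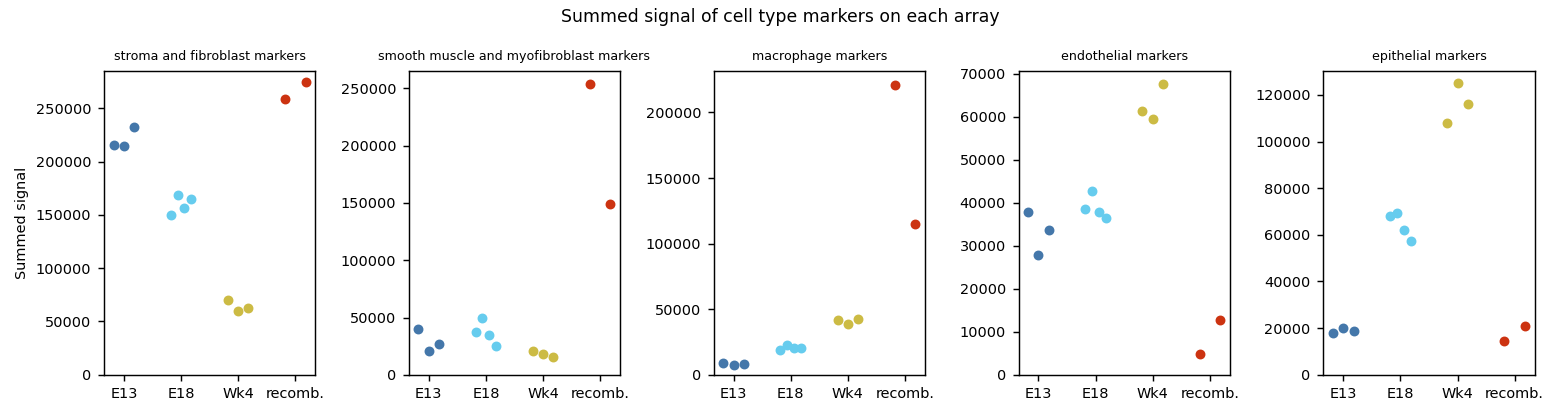
Summed signal of the markers of 5 cell types on each array, by group (recombined tissue shortened to recomb.). Points are arrays. The recombined arrays lie highest for stroma, smooth muscle and macrophage markers and lowest for endothelial markers, and they lie apart from each other for smooth muscle and macrophage markers. For stroma the place above E13 rests on Dcn, whose mean rose by more than the mean sum did.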

How the data were processed

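RNA was labelled with biotin and hybridised to Affymetrix arrays, per the labels' protocols. The deposited file holds 1 intensity value on a linear scale for each probe set and array, produced by the authors in GCOS, per the submitters' processing notes (version not given in the sources used here). Values run from 0.447 to 318614. The mean of every array came to 2500.0 once its lowest and highest 2% were set aside, so arrays had been scaled to a common mean, and a global change in RNA content is not visible. Detection calls were not used.

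Gene names came from the platform annotation (20826 of 31042 probe sets with 1 symbol, 436 with several, 9780 with none), updated by gene ID; the 57 control probe sets were left out. Signals were used as log2(signal + 271), 271 being the 25th percentile of all values, which understates the change of dim genes. A probe set was kept if it exceeded the 40th percentile of its array on 2 arrays or more (22599 kept). limma 3.58.1 under R 4.3.3 fitted the 4 groups in 1 model with an intensity trend (8 residual degrees of freedom, two-sided, Benjamini-Hochberg over what was kept); the steps were tested on simulated data. A listed gene stands for its probe set with the highest mean. Of each pathway list, up to 3 called genes with the largest difference were named for recombined tissue against E13 and for Wk4 against E18; Efemp1 and Adamtsl2 were named after their values were seen. The members and lists were chosen with earlier results of these data known. The alternatives were other pseudocounts, normalizations and filters, 2-fold calls, the array sets, the replicate block and each array left out in turn. Leaving out E18 replicate 2 together with recombined replicate 1 was added after the data were seen, as were all alternatives for single listed genes. The array sets themselves were drawn from correlations in these data. Promoter windows are from RefSeq (GRCr8). The main fit did not pair samples by replicate number, since the labels do not say that a number marks a shared litter or day.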

Additional observations from a re-analysis of the deposited data

Results flagged for a closer look

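With 4 arrays, E18 was the one group large enough for a test of single arrays, and 2 of 13 probe sets had an array far from the others; chance flags about 1 in 20 groups. Lox (1368171_at) read 7630.2 on E18 replicate 2, against 3288.2 on the nearest array, a gap of 0.872 of the group's range and past Dixon's limit at 95%. Sparc (1367563_at) read 17594.9 on E18 replicate 4, against 30759.7 on the nearest, a gap of 0.871. The second probe set of each gene had the same array at its end, with gaps of 0.598 for Lox and 0.511 for Sparc that stay under the limit. Tnc on E18 replicate 2, at 14615.7, also came close (0.809). The test used linear signals, which stretch high values, and was not run on the log2 scale of the fits, so the flags are for linear signals. On the log2 scale Lox (1368171_at) lay 0.96 above its E18 mean on replicate 2. Replicates 1, 3 and 4 lay at -0.47, -0.19 and -0.30.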

How the results depend on the processing

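Of 1892 values of single probe sets under the alternatives, 1855 kept direction and call, 19 lost the call, 9 gained one and 9 changed sign; the 2-fold threshold is counted apart. Those that changed sign were uncalled and near 0. They were Ccn1 in recombined tissue against E13, with quantile normalization (-0.12), median centring (-0.16), and with E18 replicate 2 and recombined replicate 1 both left out (-0.14); leaving out 1 array at a time gave -0.14 to 0.20. They were also Ccn1 at Wk4 against E13 (-0.33 to 0.0071 when 1 array was left out), Lox 1368172_a_at at Wk4 against E18 (-0.38 to 0.10 in the same way, and 0.10 with both arrays left out), and Sparc 1367563_at at Wk4 against E18 with the array set as a term (0.016). In the order E18 against E13, Wk4 against E18, Wk4 against E13, then recombined tissue against E13, E18 and Wk4, the member probe sets called were 3, 3, 3, 9, 6 and 8, and leaving out each array in turn gave 3 to 4, 3 to 4, 3 to 3, 7 to 10, 3 to 8 and 7 to 8. For the 75 listed genes the counts were 11, 15, 21, 28, 16 and 39, and the same ranges 11 to 12, 14 to 17, 20 to 22, 23 to 31, 15 to 22 and 38 to 41. At 2-fold the members called were 6 and 6 for E18 against E13 and Wk4 against E18, and the listed genes 17, 31 and 34 in the comparisons in vivo and 32 for recombined tissue against E18. With 4 times the pseudocount 1 member was called at Wk4 against E13, and the listed genes came to 7 for E18 against E13, 13 for Wk4 against E13 and 10 for recombined tissue against E18. Over all probe sets the counts were 529, 2529, 4036, 1098, 995 and 3435; with no pseudocount 1038, 3990, 1733 and 1594 were called for E18 against E13, Wk4 against E18, and recombined tissue against E13 and E18, with 4 times the pseudocount 188, 1420, 2300, 495, 418 and 1876, and at 2-fold 1503, 5772, 7865, 2839, 2551 and 6885. The causes were not tested. With the replicate number as a block the member counts were again 3, 3, 3, 9, 6 and 8. Of 15 same-numbered pairs of arrays in different groups 1 had deviations correlated above 0.1 (range -0.172 to 0.312). The labels do not say what the numbers stand for. Deviations cancel out within a group, and those of the embryonic arrays follow the array sets. The correlations therefore cannot exclude that a number marks a shared litter or day. With 2 to 4 arrays a group, and no detection calls, dim signals such as those of Ccn1 everywhere and of Thbs2 and Lox at E13 have no bound of their own.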

Other observations

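Genes with a course like that of a member were looked for by the distance between log2 profiles centred on their mean, as the root mean square over the 12 arrays. This is a description over all named genes and says nothing of shared control. Nearest to Postn was Fbn2, a second fibrillin gene, at a distance of 0.61, with mean signals of 12841, 9413, 90.4 and 16494 at E13, E18, Wk4 and in recombined tissue. Like Postn it had its lowest mean at Wk4 and its highest in recombined tissue. Unlike Postn, it was not told apart between recombined tissue and E13 (0.41 ± 0.28, adjusted p = 0.307 in the limma fit). Next came 6330403K07Rikl (0.71) and the kinase gene Nrk (0.71). The means of 6330403K07Rikl were 17662, 8911, 321 and 14809, so it was highest at E13. Those of Nrk were 3378, 2034, 33.8 and 11310.3.

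Nearest to Lox were both genes of collagen VI that encode its shorter chains, Col6a2 (0.45) and Col6a1 (0.52), followed by Mmp9, a gelatinase gene (0.56). Col6a2 had means of 638, 5489.8, 3109.5 and 23611 and Mmp9 of 28.3, 1009.8, 547 and 8668 in the same order of groups, so each was lowest at E13 and highest in recombined tissue, with E18 above Wk4. Nearest to Ccn2 were Pik3ip1 (0.30), the transcription factor gene Klf4 (0.32) and Prrt1 (0.32). Klf4 had means of 1147, 1187, 3143 and 5049.7, higher at Wk4 and in recombined tissue than in the embryonic kidney. For Thbs2 and Loxl1, picked after their values were seen, the nearest were the macrophage marker Aif1 (0.27), Rac2 (0.37) and Pcp4 (0.38), and Hcls1 (0.12), Csf2ra (0.17) and Bmp6 (0.17). Of these, Aif1, Rac2, Hcls1 and Csf2ra are known from leukocytes, which leaves Pcp4 and Bmp6. The nearest gene was Col14a1 for Tnc (0.47), Dnase2 for Sparc (0.18), Ddx49 for Ccn1 (0.14), Flna for Fn1 (0.17) and Tgfb3 for Fbn1 (0.27). The cells in which these genes are expressed were not tested.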
